A study of Rattus norvegicus with 8 samples.

Results

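The genes described here are 8 markers of Schwann cells, the glia of peripheral nerve. They are the myelin genes Mbp, Pmp22 and Mag, the glial identity genes Sox10 and S100b, and Ngfr, Gap43 and Gfap, which mark the repair state. They were found by symbol, without regard to case, in a table of read counts for 37209 genes, and all 8 were present. The counts came from the carotid arteries of male Sprague-Dawley (SD) rats, whose age the labels do not give. In the 4 injured arteries the intima of the left carotid had been stripped with an angioplasty balloon 2 weeks before harvest, and the 4 control arteries were undamaged right carotids. The undamaged arteries served as self-controls, so injured and control arteries shared rats, but the labels do not say which arteries came from the same rat, and the 8 arteries were tested as separate samples. The labels name no transgene or drug treatment, and the rats were under isoflurane for the balloon surgery. Each library is RNA of a whole artery with whatever tissue was dissected with it.

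Schwann cells wrap peripheral axons. The myelinating kind builds a sheath from proteins such as Pmp22 and Mbp under the transcription factors Sox10 and Egr2, and the non-myelinating kind ensheathes thin fibres, among them the sympathetic fibres that run in the adventitia of arteries. When an axon is lost or damaged, Schwann cells are known to lower their myelin genes and to raise Ngfr, Gap43, Gfap, Shh and other genes of a repair state that supports regrowth. Several of the genes are also made elsewhere. Sympathetic neurons make Ngfr and Gap43, the satellite glia of ganglia make Sox10 and S100b, fat cells and chondrocytes make S100b, and many mesenchymal cells make Pmp22.

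The libraries held 11459632 to 16658089 counts. Levels are given as CPM, which are counts scaled to a common library size with edgeR's TMM factors, and 3 counts correspond to 0.18 to 0.262 CPM of the unscaled total, a floor for counting error only. Control artery 4 stood apart from the other controls, with a correlation of log2 CPM across genes of 0.83 to 0.852 with them, against 0.976 to 0.978 among them. It was also far higher in transcripts of sympathetic neurons. The summed CPM of 15 such genes was 17840 in control artery 4 and 23.1 to 32.6 in the other controls, and all 15 were higher there than in every other control. Injured artery 3 had 5005, injured artery 1 had 346, and injured arteries 2 and 4 had 38.4 and 55.6. The 3 fits used below therefore take all 8 arteries, the 7 without control artery 4, and the 3 controls and 2 injured arteries that remain when injured arteries 1 and 3 are also left out. The contractile smooth muscle genes that mark the labelled tissue were abundant in every library, with 17280 to 50150 CPM in sum in the controls and 10400 to 16380 CPM after injury, and 4 of 6 were called lower. The extraction note names brain tissue. The 6 brain neuron genes summed to 1.09 to 22.7 CPM, the 6 oligodendrocyte genes to 39.7 to 103 CPM and the 5 astrocyte genes to 13.4 to 38.5 CPM. Of these, Neurod6, Gad2, Olig2 and Opalin had at most 3 counts in any library, while Camk2a reached 284 counts, in control artery 4, and Myrf had 465 to 1286 counts. Mog was called higher after injury, with 2 to 7 counts in the controls and 15 to 31 after injury. Other cell types also differed between the groups. The summed macrophage genes were 131 to 220 CPM in the controls and 1319 to 2154 CPM after injury, and the skeletal muscle genes 82.8 to 252 and 212 to 824 CPM, with 4 of 6 called higher. Their part in the results below was not tested.

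**Figure D1:**
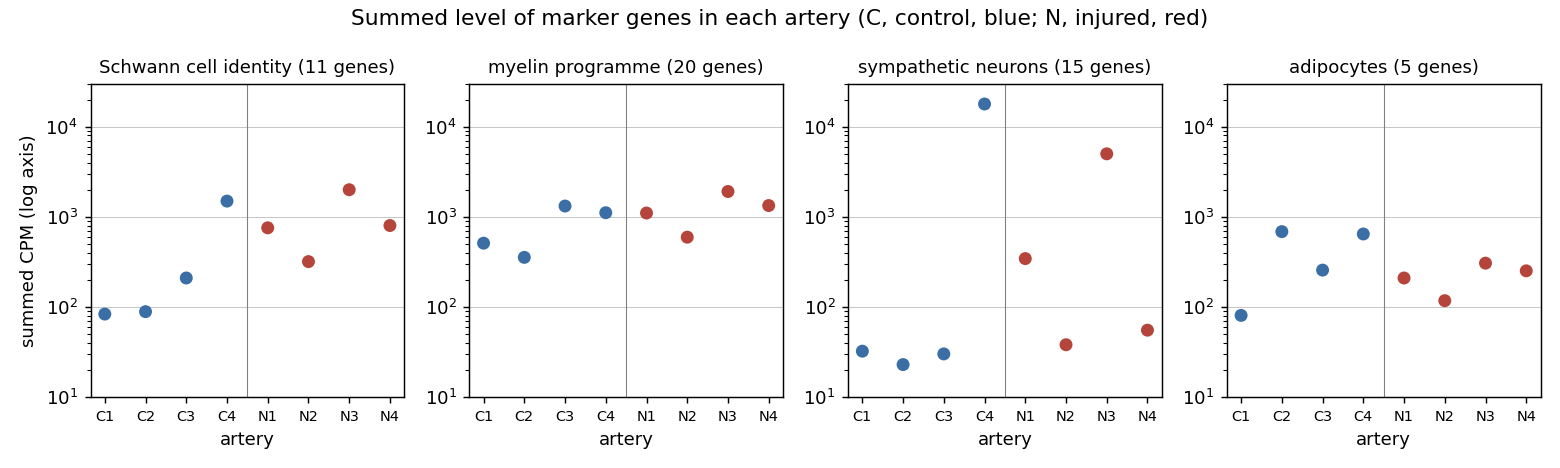
Summed CPM (vertical log axis) of 4 lists of marker genes in each of the 8 arteries (horizontal axis), with 1 point per artery. The sympathetic neuron sum reaches 17840 in control artery 4 and 5005 in injured artery 3, while the Schwann cell identity sum is 83.9 to 211 in the other controls and 320 to 2003 in the injured arteries.

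Which genes of Schwann cells differed 2 weeks after injury depended on control artery 4. With all 8 arteries, none of the 8 genes was called by edgeR's quasi-likelihood test at the limits the study used, a false discovery rate (FDR) below 0.05 and a difference of more than 2-fold. Gfap alone had an unadjusted p under 0.05. DESeq2 gave an adjusted p for 6 of the 8 genes and called 0. Over all 14359 genes tested by edgeR, 10.9% were called, 8.31% higher and 2.57% lower after injury. Without control artery 4, the 3 repair genes and Sox10 were called higher after injury, which is 4 of 8 genes against 12.3% of all genes called higher and 3.94% called lower. The same 4 were called with the 3 neuron-bearing arteries left out, where 12.3% of all genes were higher and 5.77% lower. Mbp, Pmp22, Mag and S100b were called in none of the 3 fits. In whole-artery RNA, a difference in the number of Schwann cells or nerve bundles cannot be told apart from a difference in RNA per cell.

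**Figure D2:**
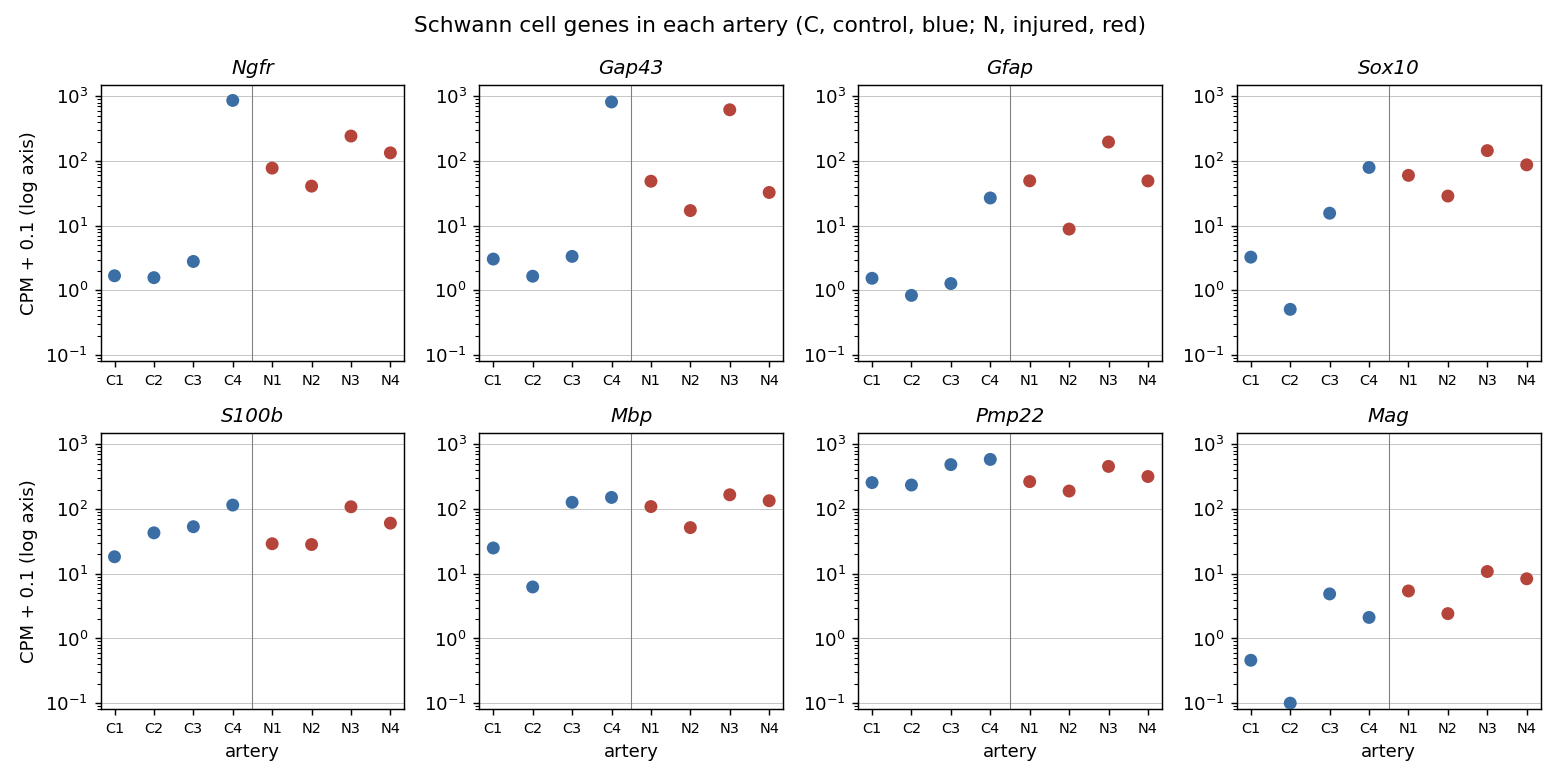
Level of each of the 8 genes (vertical log axis, CPM plus 0.1) in the 4 control arteries (C) and the 4 injured arteries (N), with 1 point per artery. Ngfr, Gap43 and Gfap lie between 0.738 and 3.26 CPM in controls 1 to 3, and each is far higher in control 4 and in the injured arteries.

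Of the repair genes, Ngfr, the low-affinity neurotrophin receptor p75, had the smallest SE of the 3 without control artery 4. It was at 1.58, 1.48 and 2.70 CPM in control arteries 1 to 3, at 864 CPM in control artery 4, and at 77.6, 40.8, 243 and 134 CPM in injured arteries 1 to 4. Every injured artery was above controls 1 to 3 and below control 4. With all 8 arteries its log2 fold change was -0.81 (SE 1.86, adjusted p = 0.8, edgeR). Without control artery 4 it was 5.99 (SE 0.72, adjusted p = 0.000966, edgeR), a 63.6-fold difference. This fit left out the control highest in Ngfr and kept injured arteries 1 and 3. Of 12 sympathetic neuron genes tested in that fit, 5 were called higher and none lower, against 12.3% and 3.94% of all genes. Their median log2 fold change was 6.52, with 11 above 0. With the 3 arteries left out the log2 fold change of Ngfr was 5.48 (SE 0.53, adjusted p = 0.000444, edgeR). That last fit rests on injured arteries 2 and 4, whose sympathetic neuron sums of 38.4 and 55.6 CPM were above the 23.1 to 32.6 CPM of controls 1 to 3. Of 10 sympathetic neuron genes tested in it, Slc18a2 (log2 fold change 3.89), Uchl1 (1.55) and Nefm (3.46) were called higher, and Slc6a2 (-2.36) and Hand2 (-1.80) lower. The part of neuronal RNA in the Ngfr difference was not tested.

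Gap43 codes for a growth-associated protein of nerve terminals that regenerating axons and repair Schwann cells both make. Controls 1 to 3 had 2.95, 1.56 and 3.26 CPM and control 4 had 819 CPM, while injured arteries 1 to 4 had 48.6, 17.05, 620 and 32.6 CPM. The 2 libraries highest in Gap43, control artery 4 and injured artery 3, were also the 2 highest in sympathetic neuron genes, and the part of neuronal RNA in its level was not tested there. The log2 fold change was -0.20 (SE 2.00) with all arteries and 6.10 (SE 1.55, adjusted p = 0.0205, edgeR) without control artery 4. With the 3 neuron-bearing arteries left out it was 3.24 (SE 0.37, adjusted p = 0.000873, edgeR), a 9.45-fold difference.

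Gfap, an intermediate filament protein of astrocytes and of non-myelinating and repair Schwann cells, was at 1.44, 0.738 and 1.18 CPM in controls 1 to 3 and at 26.8 CPM in control 4. The injured arteries had 49.3, 8.78, 196 and 49.2 CPM. Control artery 4 was above injured artery 2 and below the other injured arteries. The log2 fold change was 3.33 (SE 1.38, unadjusted p = 0.0415, adjusted p = 0.142, edgeR) with all arteries, 6.06 (SE 1.13, adjusted p = 0.00585, edgeR) without control artery 4, and 4.67 (SE 0.71, adjusted p = 0.0028, edgeR) with the 3 arteries left out. Of the 5 astrocyte genes, Aqp4, Slc1a2 and Gjb6 were at most at 0.556 CPM in every library, Slc1a3 was at 11.9 to 31.9 CPM, and Aldh1l1 was called lower after injury, from 3.82 to 5.82 CPM in the controls to 1.20 to 2.03 CPM.

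**Figure D3:**
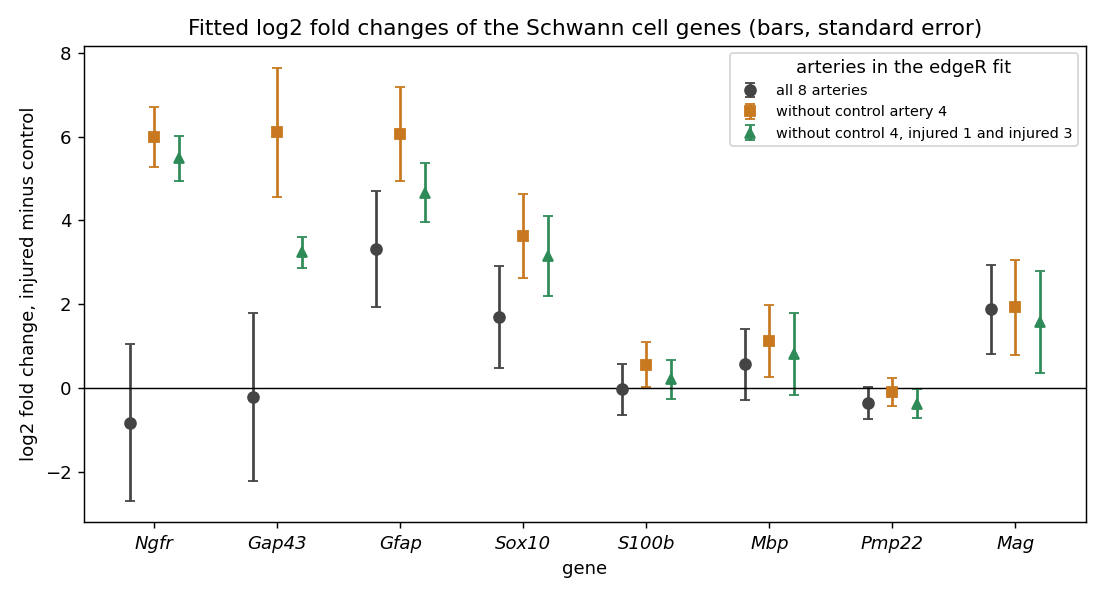
Log2 fold change, injured minus control (vertical axis), of the 8 genes (horizontal axis) in 3 edgeR fits that differ in the arteries used, with bars for the standard error. Leaving out control artery 4 moves Ngfr from -0.81 to 5.99 and Gap43 from -0.20 to 6.10, whereas Pmp22 stays between -0.36 and -0.09.

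Of the 8 genes, 5 had a RefSeq promoter of 300 bases, from 250 before to 50 after the start site, and among the 4 genes called without control artery 4 only Gfap did. It is shown beside the promoter of the myelin gene Mag, which was not called. Capitals mark the letters ACAAAG or ACAATG, which Sox10 and related factors bind, or GTGGGCG, of Egr2 and related factors, on either strand. Gfap lies on the minus strand at chr10:88361612-88361911 and Mag on the minus strand at chr1:95290995-95291294, both in GRCr8.
Gfap: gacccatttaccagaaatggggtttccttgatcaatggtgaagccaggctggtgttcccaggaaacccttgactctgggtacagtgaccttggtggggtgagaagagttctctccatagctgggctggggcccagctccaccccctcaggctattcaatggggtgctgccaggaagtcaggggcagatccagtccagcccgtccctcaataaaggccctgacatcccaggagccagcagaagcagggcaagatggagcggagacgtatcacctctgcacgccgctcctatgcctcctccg
Mag: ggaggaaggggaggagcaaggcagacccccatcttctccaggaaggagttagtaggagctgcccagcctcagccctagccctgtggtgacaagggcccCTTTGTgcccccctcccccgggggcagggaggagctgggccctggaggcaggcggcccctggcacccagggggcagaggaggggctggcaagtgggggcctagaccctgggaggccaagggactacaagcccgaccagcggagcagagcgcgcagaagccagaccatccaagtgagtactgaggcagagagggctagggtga
The Mag promoter held 1 match, to ACAAAG on the reverse strand, and the Gfap, Pmp22 and S100b promoters held 0. Mbp had 2 promoters in the table, of which one held 0 matches and the other 3, namely 1 to ACAAAG and 2 to ACAATG. Of 33469 rat promoters of this length, 18.8% held ACAAAG, 13.2% ACAATG and 7.12% GTGGGCG. A match describes the letters and not a bound site.

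Sox10 is the transcription factor that Schwann cells, satellite glia and melanocytes need for their identity. Its CPM was 3.17, 0.41 and 15.5 in controls 1 to 3, 79.4 in control 4, and 59.9, 28.7, 145 and 87.2 in the injured arteries. The injured arteries were all above controls 1 to 3, and injured arteries 1 and 2 were below control 4. The log2 fold change was 1.70 (SE 1.22) with all arteries, 3.63 (SE 0.99, adjusted p = 0.0275, edgeR) without control artery 4, and 3.15 (SE 0.95, adjusted p = 0.0387, edgeR) with the 3 arteries left out. Sox10, Ngfr, Gap43 and Gfap were the 4 genes whose injured levels all exceeded controls 1 to 3, a pattern that 22.2% of all genes showed. With control artery 4 included, none of the 8 genes had every injured artery above every control, against 14.2% of all genes. The two-sided exact permutation test of log2 CPM gave p = 0.0571 for each of the 4 without control artery 4, which is the smallest p that 4 against 3 arteries allow.

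S100b, a calcium-binding protein of Schwann cells, fat cells and chondrocytes, did not follow Sox10. It had 18.2, 42.8, 53.3 and 115 CPM in the controls and 29.0, 28.2, 108 and 60.5 CPM in the injured arteries, and the groups overlapped over nearly their whole range. Its log2 fold change was -0.02 (SE 0.61) with all arteries, 0.57 (SE 0.54) without control artery 4 and 0.21 (SE 0.46) with the 3 arteries left out. Control artery 2, with 5 counts of Sox10, had 522 counts of S100b, and this artery also had the highest sum of 5 adipocyte genes, 688 CPM against 81.1 to 647 CPM in the other controls and 118 to 308 CPM in the injured arteries. The chondrocyte sum was 12.8 to 21.5 CPM in the controls and 120.5 to 402 CPM after injury. The part of either cell type in the S100b level was not tested.

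Most other genes of Schwann cell identity were called where Sox10 was. Of 12 listed genes, 11 matched the table and were tested. With all arteries edgeR called 0 of them, with 3 at an unadjusted p under 0.05. DESeq2 called 2 of them, and 2151 of the 16469 genes to which it gave an adjusted p. The median edgeR log2 fold change of the 11 genes was 1.43, against -0.06 over all genes. Without control artery 4, 9 of 11 were called higher and none lower, against 12.3% and 3.94% of all genes, with a median of 3.63 against 0.03 over all genes. Those with the largest values were Cadm4, an adhesion protein of the contact between Schwann cell and axon, at 5.04 (SE 0.98, adjusted p = 0.00705, edgeR), the neural crest factor Foxd3 at 4.996 and the cadherin Cdh19 at 3.84. The smallest were S100b, Tfap2a at 1.74 (SE 0.78, not called) and the laminin receptor subunit Itga6, which was called at 2.09 (SE 0.33). With the 3 neuron-bearing arteries left out, 8 of 10 were called higher. With all arteries, Cadm4 at 3.18, Gfra3 at 2.30 and Sox10 had the largest values, and S100b, the sodium channel Scn7a at 0.42 and Cdh19 at 0.50 the smallest. The perineurial genes, of cells that sheathe nerve bundles, summed to 183 to 216 CPM in controls 1 to 3, to 472 in control 4 and to 191 to 750 in the injured arteries.

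The genes whose log2 CPM profile was most like that of Sox10 included several known glial genes. Over the 8 arteries the closest, by Pearson's r, were Sox2, Cmtm5, Reln, Erbb3 and Col9a3 (r from 0.989 to 0.993), followed by Shc4, Gins4, Foxd3, Cadm4 and Celsr2 (r from 0.977 to 0.982). Over the 7 arteries without control artery 4 they were Cmtm5, Reln, Mlip, Sox2, Dock5, Rhpn1, Erbb3, Pou3f1, Apod and Col9a3 (r from 0.989 to 0.997). Among the 8 genes of this account, Mbp at 0.945 and Mag at 0.927 came nearest to Sox10 over 8 arteries, and S100b at 0.522 and Pmp22 at 0.473 were farthest. These values describe shared levels in 8 libraries, which differ in nerve content, and carry no test.

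The myelin genes differed widely among the controls. Mbp, a major protein of compact myelin, was at 24.9, 6.15, 127 and 151 CPM in control arteries 1 to 4 and at 109, 51.6, 166 and 134 CPM in the injured arteries. Control arteries 3 and 4 thus lay within the injured range, and control artery 2 was the lowest of all. Its log2 fold change was 0.58 (SE 0.85, adjusted p = 0.685, edgeR), 1.12 (SE 0.86, adjusted p = 0.359, edgeR) without control artery 4, and 0.81 (SE 0.98) with the 3 arteries left out. Counts are per gene, so the myelin transcripts of Mbp and its golli transcripts, made also by neurons and T cells, could not be separated.

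Mag, an adhesion protein of the inner myelin wrap, had few counts, namely 5, 0, 69 and 29 in the controls and 89, 32, 191 and 101 in the injured arteries. Its CPM was 0 to 4.78 in the controls and 2.32 to 10.7 after injury, and injured artery 2 overlapped with control artery 3. The log2 fold change was 1.88 (SE 1.06, adjusted p = 0.27, edgeR) with all arteries, 1.93 (SE 1.13, adjusted p = 0.235, edgeR) without control artery 4 and 1.58 (SE 1.22) with the 3 arteries left out. Relative to Mbp of the same artery, Mag reached 0.045 to 0.0646 counts per count after injury and 0 to 0.0376 in the controls. The ratios of control arteries 1 and 2 rest on 5 and 0 counts of Mag. How many of all genes separate the groups in this way relative to Mbp was not counted.

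Pmp22, a membrane protein of compact myelin that fibroblasts and smooth muscle cells also make, had 256, 235, 486 and 585 CPM in the controls and 265, 190, 456 and 318 CPM after injury. Control and injured levels overlapped. The log2 fold change was -0.35 (SE 0.37, adjusted p = 0.57, edgeR), -0.09 (SE 0.34) without control artery 4, and -0.36 (SE 0.35) with the 3 arteries left out.

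Among the injured arteries, the 8 genes ranked alike at both ends. Injured artery 2 was the lowest of the 4 injured arteries in 8 of 8 genes and injured artery 3 the highest in 8 of 8. The share of all genes ranked in this way was not counted. Injured artery 3 also had the highest sympathetic neuron sum of the injured arteries, 5005 CPM. Over all arteries, control artery 4 was highest for Pmp22, S100b, Ngfr and Gap43, and injured artery 3 for the other 4.

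Among the other myelin genes, Pmp2 and Pou3f1 were higher after injury. Of 20 listed genes, 17 were tested with all arteries, and 2 were called higher and none lower, where 8.31% of all genes were called higher. A count of 2 is near that share. The median log2 fold change was 0.81, against -0.06 over all genes. Pmp2, a fatty acid-binding protein of myelin, had 0 to 17 counts per control artery and 34 to 88 per injured artery, with a log2 fold change of 3.59 (SE 0.91, adjusted p = 0.0303, edgeR). Pou3f1, a POU factor of promyelinating Schwann cells, rose from 0.082 to 1.59 CPM in the controls to 3.48 to 11.6 CPM after injury. The log2 fold change was 3.19 (SE 0.72, adjusted p = 0.0192, edgeR). The control range of Pou3f1 lay wholly below the injured range, a pattern that 14.2% of all genes showed. Its log2 fold change was 3.43 without control artery 4 and 3.23 with the 3 arteries left out, and it was called in both. Both calls were less firm when another artery was left out. Pmp2 lost its call without control artery 2 or injured artery 1, 2 or 4 (adjusted p up to 0.0913, edgeR), and Pou3f1 without control artery 1 or injured artery 4 (adjusted p up to 0.0627, edgeR). Mag had the third largest value, and the smallest were Ncmap at -0.69 (SE 1.05), Pmp22 and Fa2h at 0.34 (SE 0.92), none of them called. Cnp was also called without control artery 4, at 1.57 (SE 0.39, adjusted p = 0.0187, edgeR).

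The myelin genes Gjb1 and Drp2 were not tested and were at 0 in all 8 libraries, as was L1cam of the repair list. All 3 are X-linked in the RefSeq annotation of the rat assembly GRCr8. Of 606 protein-coding X-linked genes of the table, 592, or 97.7%, were listed at 0 in every library, against 9.62% of 16016 autosomal genes. These zeros therefore give no level for Gjb1, Drp2 or L1cam.

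Myelin and repair genes could be set side by side within an artery. Control artery 3 and injured artery 1 had similar Mbp (127 and 109 CPM), whereas Ngfr was 2.70 and 77.6 CPM, Gfap 1.18 and 49.3 CPM and Sox10 15.5 and 59.9 CPM. Control artery 4, with 151 CPM of Mbp, had 864 CPM of Ngfr, 26.8 of Gfap and 79.4 of Sox10. A difference of this kind was thus also found between controls. The sympathetic neuron sum was 30.4 CPM in control artery 3 and 346 CPM in injured artery 1. For each count of Sox10, the injured arteries had 1.29 to 1.68 counts of Ngfr, although their Sox10 levels ranged from 28.7 to 145 CPM. The controls had 0.174 to 3.6 counts of Ngfr per count of Sox10 in arteries 1 to 3 and 10.9 in control 4. Mbp per count of Sox10 was 1.15 to 1.82 after injury and 1.90 to 15.0 in the controls, with the nearest value in control artery 4. Such a lower ratio in every injured artery was also found for S100b and Pmp22. It held for 8.57% of all genes over 8 arteries and for 80.7% without control artery 4, where Sox10 itself was low in every control. The ratio of control artery 2 rests on 5 counts of Sox10.

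**Figure D4:**
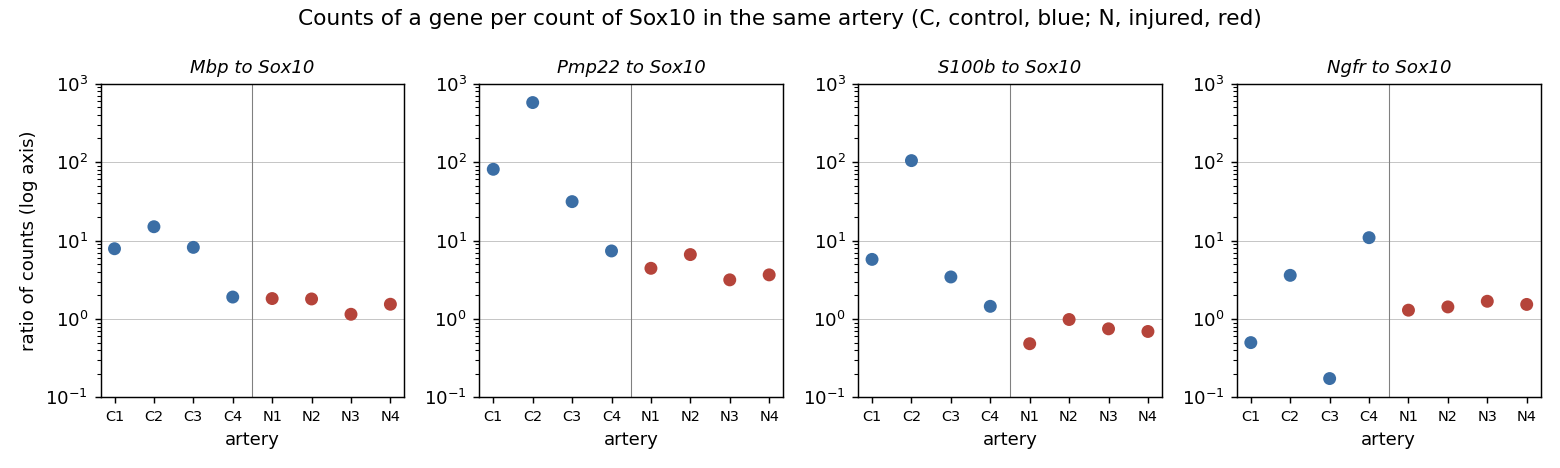
Counts of Mbp, Pmp22, S100b and Ngfr per count of Sox10 in the same artery (vertical log axis) for each control (C) and injured (N) artery. The injured arteries stay within 1.29 to 1.68 for Ngfr and 1.15 to 1.82 for Mbp, while the controls range from 0.174 to 10.9 and from 1.90 to 15.0.

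Beyond Ngfr, Gap43 and Gfap, the repair list held 13 genes. Of its 16 genes 13 were tested, and with all arteries 2 were called higher and none lower, near the 8.31% of all genes called higher, with a median log2 fold change of 0.11. They were Runx2 at 2.40 (SE 0.31, adjusted p = 0.00175, edgeR) and the cytokine Lif at 1.44 (SE 0.40, adjusted p = 0.0423, edgeR). The call of Lif was lost when any artery but control 3 or control 4 was left out (adjusted p up to 0.116, edgeR), and that of Runx2 was kept in all 8 such fits. Runx2 had 1.46 to 3.82 CPM in the controls and 14.2 to 18.2 CPM after injury, without overlap. Every injured artery was above every control for 14.2% of all genes. Runx2 is better known as a factor of bone and cartilage formation, and the chondrocyte gene Acan rose too, from 0.208 to 2.88 CPM in the controls to 31.7 to 208 CPM after injury (adjusted p = 0.00265, edgeR), so that the cell that made Runx2 could not be told apart. Without control artery 4 the called genes were 6, against 12.3% of all genes called higher, namely these 2, Ngfr, Gap43, Gfap and Sox2. Sox2, a factor of immature Schwann cells, had a log2 fold change of 1.73 (SE 1.22) with all arteries and 3.86 (SE 0.92, adjusted p = 0.0161, edgeR) without control artery 4. Jun, the transcription factor that drives the repair state, was not called, at -0.47 (SE 0.68), with 201 to 1256 CPM in the controls and 198 to 926 CPM after injury. Shh, a signal that Schwann cells make after nerve damage, had 0 counts in all 4 controls and 5, 4, 13 and 26 counts in the injured arteries, too few for the test. The glial factor Olig1 had at most 1 count in any library.

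Of 12 neurotrophin and neuregulin genes, 10 were tested. With all arteries 1 was called higher and 1 lower, against 8.31% and 2.57% of all genes. The median log2 fold change was -0.50. Sort1, a sorting receptor that binds neurotrophin precursors with Ngfr, fell by 1.10 on the log2 scale (SE 0.20, adjusted p = 0.00761, edgeR), from 308 to 527 CPM in the controls to 174 to 246 CPM. The ranges did not overlap, control artery 4 included, and Sort1 was called with each of the 8 arteries left out in turn. The share of all genes with every injured artery below every control was not counted. Erbb3, the neuregulin receptor of Schwann cells, had 1.56 (SE 1.16) and was called without control artery 4 at 3.63 (SE 0.87, adjusted p = 0.0164, edgeR), while its partner Erbb2 had 0.38 (SE 0.21). Ntrk2, the receptor of other neurotrophins, had -0.93 (SE 0.61) and was not called with all arteries. With the 3 neuron-bearing arteries left out it was called lower, at -1.85 (SE 0.32, adjusted p = 0.00441, edgeR). Ntf3 and its receptor Ntrk3 were also called lower without control artery 4, at -1.04 and -1.05. In that fit 3 of the 10 genes were called higher and 3 lower, against 12.3% and 3.94% of all genes. Their median log2 fold change was then 0.09.

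Satellite glia, which wrap the cell bodies of ganglion neurons, share Sox10, S100b and Cdh19 with Schwann cells. Of their 5 listed genes, Fabp7 and Kcnj10 were picked after their values were seen. Fabp7 had 87 counts in control artery 4 and 48 in injured artery 3, 1 in injured artery 4 and 0 in the others. Kcnj10 was at 24.7 CPM in control artery 4, at 8.82 CPM in injured artery 3 and at 0 to 2.13 CPM elsewhere. The summed level of the 5 listed satellite glia genes was 408 to 873 CPM in the controls and 554 to 736 CPM after injury. Most of it came from the widely expressed Gja1 and Glul. Control artery 4 had a sum of 487.5 CPM and injured artery 3 had 553.5 CPM, within or at the low end of their groups. In control artery 4 Gja1 was the lowest of all arteries, at 160 CPM. Glul, at 211.5 CPM, was the highest of the controls there, and Cdh19, at 85.2 CPM, the highest of all arteries. The part of satellite glia in the Sox10 and S100b levels of control artery 4 and injured artery 3 was not tested.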

How the data were processed

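The authors deposited 1 table of raw counts per gene, with 1 column per artery, for 4 injured and 4 control carotid arteries. The submitters' processing notes name HISAT2 2.0.4. The counting tool, genome build, annotation and strand setting are not given in the sources used here, so genes that overlap or have near-identical copies are uncertain. Columns were assigned by the labels. Injured and control arteries were compared without a covariate by the quasi-likelihood test of edgeR 4.0.16 (R 4.3.3), after TMM scaling, over the 14359 of 37209 genes that passed filterByExpr. Adjusted p-values use the Benjamini-Hochberg method over all genes tested, and calls required an FDR below 0.05 with more than a 2-fold difference. The SE of a log2 fold change was derived from the F statistic. Log2 CPM for correlations used a prior count of 2. Group values are over separate arteries, and the exact permutation test (scipy 1.17.1) was two-sided.

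The alternatives were DESeq2 1.42.0, RLE factors, upper-quartile factors, library totals only, the replicate block, no filter on low counts, a minimum of 10 counts in each sample, each artery left out in turn, FDR alone, and a test of whether the difference exceeded 2-fold. Leaving out control artery 4 together with injured arteries 1 and 3 was chosen after seeing the data. Leaving out control artery 4 alone was among the planned fits, but its use as a main fit was decided after the neuron transcripts were seen. The fits were tested on simulated data. The members and the lists were chosen with earlier results of these data known. The genes named from each list have the 3 largest and 3 smallest log2 fold changes with all arteries. The genes likest Sox10 are the 10 with the highest Pearson's r. Cnp, Foxd3, Itga6, Tfap2a, Lif, Shh, Olig1, Ntf3, Ntrk3, Fabp7, Kcnj10, Acan and single genes of the marker lists were named in addition, after their values were seen. So were the ratios to Sox10 and to Mbp. Some listed genes are not reported here by name, and list counts and medians include them.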

Additional observations from a re-analysis of the deposited data

Results flagged for a closer look

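In 12 of 54 groups of 4 arteries examined, the gap between the most extreme artery and its nearest neighbour, divided by the whole range, exceeded Dixon's 95% critical value for 4 samples. Chance flags about 1 in 20 groups, or 2.7 of 54. In 10 of the 12 flagged groups the extreme artery was control artery 4. Its ratio was 0.999 for Ngfr (864 CPM against 2.70 in the nearest control), 0.998 for Gap43, 0.973 for Gfap, 0.832 for Cadm4, 0.939 for Gfra3, 0.947 for Scn7a, 0.959 for Cdh19, 0.848 for Sox2, 0.866 for Erbb3 and 0.999 for the summed sympathetic neuron genes. Injured artery 3 stood apart in Gap43 with a ratio of 0.948 (620 CPM against 48.6 in the nearest injured artery) and in the summed sympathetic neuron genes with 0.938. Sox10, S100b, Mbp, Pmp22 and Mag had no such artery in either group.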

How the results depend on the processing

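Control artery 4 decided most of these calls. When each artery was left out in turn, the number of the 8 genes called ranged from 0 to 4, of Schwann cell identity genes from 0 to 9, of myelin genes from 0 to 4, of repair genes from 1 to 6 and of neurotrophin and neuregulin genes from 2 to 6. The highest came without control artery 4, except for the myelin genes, where it came without control artery 3. Log2 fold changes then ranged from -1.38 to 5.99 for Ngfr, -2.66 to 6.10 for Gap43, 2.24 to 6.06 for Gfap, 1.24 to 3.63 for Sox10 and -0.55 to 0.57 for S100b. Without control 4, injured 1 and injured 3, the counts were 4 of the 8 genes, 8 identity, 6 repair and 7 neurotrophin and neuregulin genes, and Ngfr, Gap43, Gfap, Sox10 and S100b had 5.48, 3.24, 4.67, 3.15 and 0.21. DESeq2 called 2 identity genes, and 2151 of all 16469 genes to which it gave an adjusted p. Called myelin genes numbered 1 without a filter, 0 when every sample needed at least 10 counts and 0 against a fold change of 2. The neurotrophin list gave 1 with library totals only, 1 with the 10-count minimum and 1 against a fold change of 2, and the repair list 1 in the last. With the replicate block, 1 repair gene was called, and the uncalled log2 fold changes were 4.47 for Ngfr (adjusted p = 0.232, edgeR), 3.55 for Gap43 (adjusted p = 0.403, edgeR) and 0.0399 for S100b. Same-numbered arteries correlated in their deviations from the group means at 0.301, 0.45, -0.52 and -0.416. These values cannot tell whether such arteries shared a rat, because control artery 4 and injured artery 3 stood far from their group means. The numbers were not taken as pairs, since the labels do not name the rat. S100b was at 0.13 with library totals only, 0.078 with upper-quartile factors and 0.0075 with the 10-count minimum, a filter that removed Mag, Sox10 and Gfap. Library totals shifted the median of all genes by 0.17. What caused these shifts was not tested. Depth limits Mag, with 0 to 191 counts, and Sox10 in control artery 2, with 5.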
